A study of Mus musculus with 7 samples.

Results

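The genes described here are 10 components of the machinery that docks, primes and fuses secretory granules in islet endocrine cells: Snap25, Vamp2, Stx1a, Rims2, Unc13a, Cadps, Cadps2, Doc2b, Rph3al and Sytl4. They were taken by symbol from the annotation of the array platform, and all 10 were measured, each by 1 probe set, among 22180 genes tested. Pancreatic islets of mice were profiled on 7 whole-transcript arrays, 3 labelled control (Gata6 flox/flox, no Cre) and 4 labelled Gata6 KO (Gata6 flox/flox;Pdx1-Cre). Both groups carry the floxed alleles, and Pdx1-Cre is active in the pancreatic epithelium, acinar and duct cells included, so Cre itself and the loss of Gata6 cannot be told apart. Islets of 3 mice, 2 months old, were isolated with collagenase and pooled for each array, so p-values reflect how pools vary. Values are log2 signals. The number of arrays limits the precision.

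Regulated exocytosis rests on SNARE proteins, which sit on the granule and on the plasma membrane and zip together to drive fusion. In beta, alpha and delta cells, as in neurons, the granule SNARE is mainly VAMP2, and its partners on the plasma membrane are syntaxin and SNAP25. Before fusion, Rab effectors tether granules at the membrane and priming factors of the Munc13 and CAPS families make them ready for a calcium signal. Pancreatic acinar cells also secrete by exocytosis, but their zymogen granules use other family members, VAMP8, Rab3D and Rab27B among them.

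The signal of Gata6, the targeted gene, went against the labels: its 3 control values of 4.60, 4.80 and 4.83 lay below the 5.41, 5.35, 5.34 and 5.01 of the arrays labelled Gata6 KO (limma, Benjamini-Hochberg adjusted p = 0.0622). Which exons are floxed and where the probes lie was not analysed here, so probes beyond the deleted exons would check nothing. Directions below are those of the labels. Over all genes the log2 difference had a median of 0.17, so changes below are log2 differences minus this shift, and their SE and p are those of the unshifted difference. The Gata6 signals above are unshifted, and minus the shift its change was 0.37 (SE 0.20, 95% interval from -0.05 to 0.79). The arrays carried signals of several pancreatic cell types in both groups. Of 13 measured pan-endocrine markers (hormone granule proteins and endocrine transcription factors) 12 were lower in the labelled Gata6 KO group, and the list mean ran from 7.05 to 7.54 on the control arrays and from 3.98 to 5.52 on the others. Of 17 acinar markers 9 were higher and 0 lower in limma's test (10 and 1 at an unadjusted p under 0.05), or 8 and 1 with arrays centred on their median and 6 and 1 after a repeated quantile normalization, with a mean from 10.4 to 10.5 on the control arrays and from 11.1 to 11.3 on the others. No marker of either list was near 0 on any control array. Chga, the granule protein chromogranin A, reached 12.09 ± 0.15 (SD, n = 3) there, beside 13.40 ± 0.03 (SD, n = 3) for the acinar protease gene Ctrb1. The highest signal of any probe set was 13.54, so Ctrb1 lay near the top of the scale. How far such acinar genes could rise was not tested. Xist, which only female cells express strongly, measured 1.34 on control array 3 and 2.15 on array 3 labelled Gata6 KO, against 5.02 to 5.60 on the remaining 5 arrays, and with this split as a block the same 7 members passed. The part that the marker shifts have in the results below was not tested, and fewer endocrine cells and less RNA per cell cannot be told apart in these samples.

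On the arrays labelled Gata6 KO, 7 of the 10 genes were lower and 0 were higher by limma's test, at an adjusted p under 0.05 (Benjamini-Hochberg, all genes), and the counts were 7 and 0 at an unadjusted p under 0.05. Among all 22180 genes, 7.36% were lower and 17.4% were higher by the same rule. This balance turned with the scaling: 12.8% were lower and 7.85% higher when each array was centred on its median, and 13.0% and 9.10% after a repeated quantile normalization, while the same 7 members were called under both. These are the rescalings referred to below. The median change of the 10 genes was -1.04. For 6 of them every array labelled Gata6 KO lay below every control array, a pattern that 9.96% of all genes showed. With arrays centred on their median 8 members and 19.1% of all genes showed it. The falls ranged from 17.6-fold for Snap25 to 1.88-fold for Rph3al relative to the median gene. Stx1a, Cadps2 and Doc2b did not pass the test. The count of 7 went to 4 without control array 1, with Vamp2, Rims2 and Rph3al no longer passing.

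**Figure D1:**
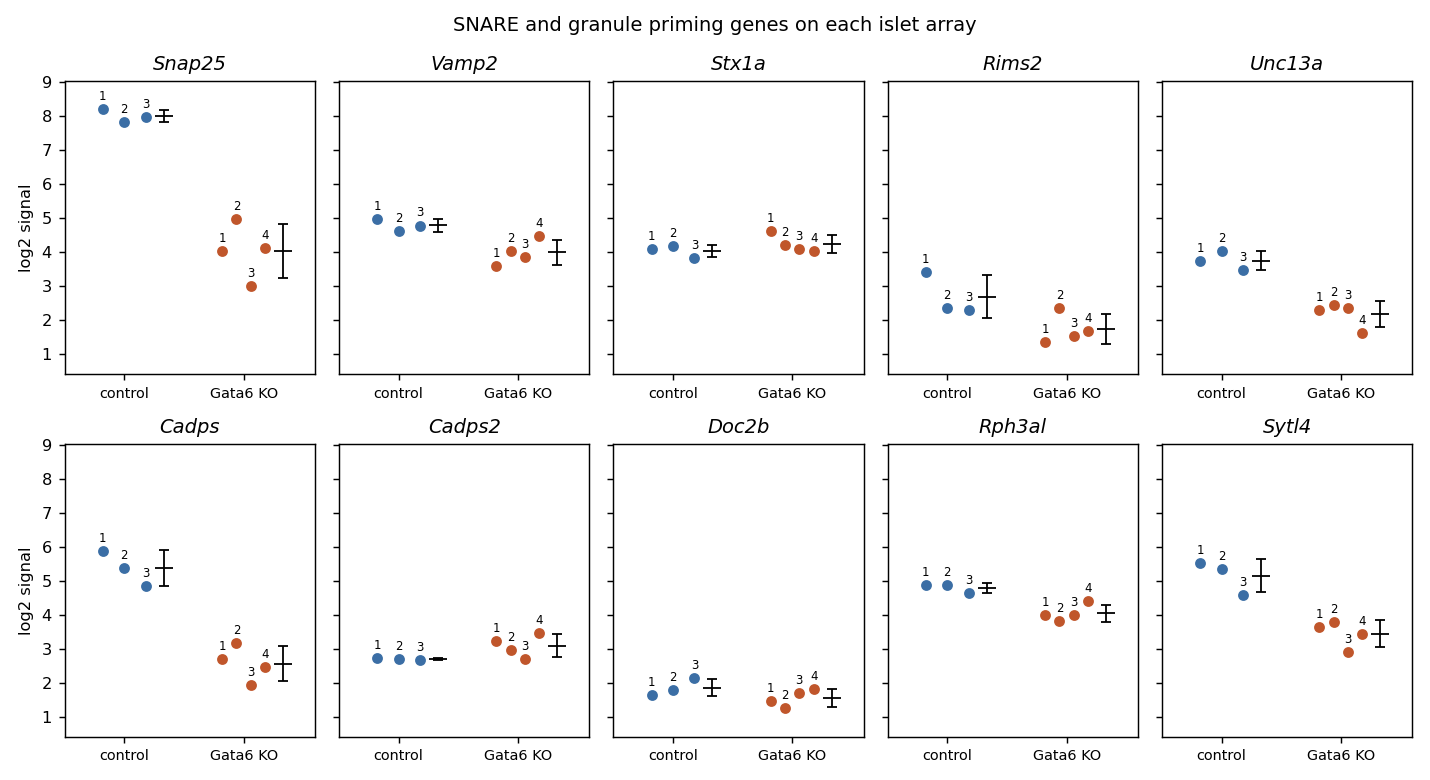
Log2 signal of each of the 10 genes (vertical axis) on the 3 control arrays (blue) and the 4 arrays labelled Gata6 KO (orange). Numbers beside points are replicate numbers, and bars give the mean ± SD of each group. Snap25, Cadps, Unc13a and Sytl4 show the widest gaps between groups, while the groups overlap for Stx1a, Cadps2, Doc2b and Rims2.

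Of the 3 genes of the neuronal-type SNARE complex, Snap25 and Vamp2 fell and Stx1a did not pass the test. Snap25 encodes a plasma-membrane SNARE of the fusion complex. Its values were 8.20, 7.84 and 7.99 on the 3 control arrays, against 4.05, 4.98, 3.02 and 4.12 on the arrays labelled Gata6 KO. All 4 of the latter were far below the control arrays, with array 3 lowest and array 2 highest. The change was -4.14 (SE 0.34, limma adjusted p = 4.84e-06), the second largest fall of all genes tested when ranked by log2 difference. Vamp2, the granule SNARE, measured 4.98, 4.61 and 4.79 on control arrays, against 3.58, 4.05, 3.87 and 4.49 in the labelled Gata6 KO group. The groups were separated by 0.12 between the lowest control array and array 4 labelled Gata6 KO. Vamp2 fell by 0.96 relative to all genes (SE 0.24, limma adjusted p = 0.0246). Vamp2 no longer passed limma's test when control array 1 (adjusted p = 0.109), control array 3 (adjusted p = 0.0690) or array 1 of the labelled Gata6 KO group (adjusted p = 0.0556) was left out, or when all probe sets were tested (adjusted p = 0.0568). Stx1a, the plasma-membrane syntaxin that pairs with SNAP25, measured 4.09, 4.19 and 3.82 on control arrays, against 4.61, 4.22, 4.08 and 4.04 in the labelled Gata6 KO group. These values overlapped, and the change was 0.04 (SE 0.22, limma adjusted p = 0.524, 95% interval from -0.42 to 0.50). The unshifted difference of 0.20 turned to -0.04 when each array was centred on its median, and neither passed the test.

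Of the priming factors, Cadps and Unc13a fell and Cadps2 did not pass. Cadps encodes CAPS1, which primes dense-core granules. It measured 5.89, 5.39 and 4.86 on control arrays, against 2.70, 3.16, 1.93 and 2.48 on those labelled Gata6 KO, with no overlap. The change was -2.98 (SE 0.30, limma adjusted p = 2.35e-05), or 7.88-fold lower. Its paralog Cadps2, also a priming factor of dense-core granules, measured 2.73, 2.71 and 2.68 on control arrays, against 3.24, 2.96, 2.71 and 3.47 in the labelled Gata6 KO group. The control arrays spanned 0.0546, and array 3 of the labelled Gata6 KO group lay among them. The change of Cadps2 was 0.23 (SE 0.22, limma adjusted p = 0.223, 95% interval from -0.26 to 0.71). Unc13a encodes the Munc13 protein that opens syntaxin during priming. It measured 3.75, 4.03 and 3.47 on control arrays, against 2.29, 2.44, 2.36 and 1.61 in the labelled Gata6 KO group, and changed by -1.74 (SE 0.25, limma adjusted p = 5.11e-04). Here array 4 was lowest, and the other arrays labelled Gata6 KO lay between 2.29 and 2.44.

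The 3 genes of proteins that hold granules through Rab GTPases fell. Sytl4 encodes granuphilin, a Rab27A effector that docks insulin granules. It measured 5.52, 5.36 and 4.59 on control arrays, against 3.65, 3.80, 2.91 and 3.44 in the labelled Gata6 KO group, with control array 3 nearest to the lower group. The change was -1.87 (SE 0.27, limma adjusted p = 5.42e-04). Rph3al encodes Noc2, a Rab effector of endocrine and exocrine granules. Its signal was 4.89, 4.87 and 4.63 on control arrays, against 4.01, 3.81, 3.99 and 4.40 in the labelled Gata6 KO group, so the groups did not overlap. Rph3al fell by 0.91 relative to all genes (SE 0.21, limma adjusted p = 0.0191). It no longer passed when control array 1 (adjusted p = 0.0803), control array 2 (adjusted p = 0.0788) or array 2 of the labelled Gata6 KO group (adjusted p = 0.0581) was left out. Rims2 encodes a Rab3-binding scaffold that holds granules near calcium channels. Its signal was 3.42, 2.36 and 2.30 on control arrays, against 1.37, 2.36, 1.53 and 1.70 in the labelled Gata6 KO group, so control array 1 stood above the rest and array 2 of the labelled Gata6 KO group reached the control level. The change was -1.12 (SE 0.30, limma adjusted p = 0.0330). Without control array 1 the unshifted Rims2 difference went from -0.95 to -0.59 (adjusted p = 0.184). The Rims2 call was also lost without the arrays labelled Gata6 KO 1 (adjusted p = 0.0783), 3 (adjusted p = 0.0768) or 4 (adjusted p = 0.0514), and with all probe sets tested (adjusted p = 0.0866).

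Doc2b encodes a calcium sensor with C2 domains that binds SNAREs and Munc13 proteins. It measured 1.66, 1.78 and 2.14 on control arrays, against 1.46, 1.25, 1.71 and 1.82 in the labelled Gata6 KO group. The groups overlapped, and the change was -0.46 (SE 0.21, 95% interval from -0.91 to -0.017), while the unshifted difference of -0.30 gave a limma adjusted p of 0.320. The median of all probe sets was 1.72 to 1.78 on control arrays, so the Doc2b probe set read at the level of the median probe set. On the arrays labelled Gata6 KO that median was 1.89 to 2.11. The means of Rims2 (1.74) and Unc13a (2.18) there lay at or near this level. Cadps had a mean of 2.57 there, with 1.93 on array 3. How this level limits the size of their falls was not tested. In the RefSeq table of mouse assembly GRCm38.p6, Doc2b and Rph3al are neighbouring protein-coding genes, with the lncRNA gene Gm12339 between them and overlapping both.

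In the exact two-sided permutation test over the 35 splits of 7 arrays, Snap25, Cadps, Unc13a and Sytl4 reached p = 0.0286, the smallest the design allows. Vamp2 and Rph3al gave p = 0.0571 in this exact test, Rims2 and Cadps2 p = 0.0857, Doc2b p = 0.257 and Stx1a p = 0.4. The order of the arrays labelled Gata6 KO differed from gene to gene. Of the 7 genes that fell, array 3 was lowest for Snap25, Cadps and Sytl4, array 1 for Vamp2 and Rims2, array 2 for Rph3al and array 4 for Unc13a. Array 2 was the highest of the 4 for 5 of the 7 genes.

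RefSeq promoter sequences were found for 6 of the 10 genes (Stx1a, Unc13a, Cadps, Cadps2, Rph3al and Sytl4). The sequence of Cadps2 was searched but is not printed. The others are shown because the GATA family binds the letters GATA with fixed neighbours. Of these genes Cadps, Unc13a, Rph3al and Sytl4 fell, while Stx1a did not pass the test. The 250 bases before the annotated start were searched on both strands for GATAA or GATAG with an A or a T before it. At least 1 match was found in 3 of the 6 (Stx1a, Rph3al and Sytl4), and in 26.5% of the 32851 promoters of the same length in the table. In the following sequences of build GRCm38.p6, written 5′ to 3′ on the gene's strand, any match is in capitals.
Stx1a (chr5:135023232-135023481, plus strand): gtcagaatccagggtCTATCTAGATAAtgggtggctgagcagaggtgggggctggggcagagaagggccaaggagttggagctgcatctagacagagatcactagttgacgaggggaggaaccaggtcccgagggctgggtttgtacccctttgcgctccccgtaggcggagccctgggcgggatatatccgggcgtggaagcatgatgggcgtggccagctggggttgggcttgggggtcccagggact
Rph3al (chr11:75925892-75926141, minus strand): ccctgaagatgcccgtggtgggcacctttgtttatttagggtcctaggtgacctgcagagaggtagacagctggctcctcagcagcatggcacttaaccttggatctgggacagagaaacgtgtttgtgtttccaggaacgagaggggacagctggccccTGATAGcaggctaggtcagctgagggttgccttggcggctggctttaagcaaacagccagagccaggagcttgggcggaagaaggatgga
Sytl4 (chrX:133981813-133982062, minus strand): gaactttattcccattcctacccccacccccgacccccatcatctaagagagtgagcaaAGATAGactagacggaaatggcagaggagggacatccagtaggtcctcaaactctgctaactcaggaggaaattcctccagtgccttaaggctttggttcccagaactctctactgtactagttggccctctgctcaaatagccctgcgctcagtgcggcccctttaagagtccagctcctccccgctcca
Cadps (chr14:12823080-12823329, minus strand): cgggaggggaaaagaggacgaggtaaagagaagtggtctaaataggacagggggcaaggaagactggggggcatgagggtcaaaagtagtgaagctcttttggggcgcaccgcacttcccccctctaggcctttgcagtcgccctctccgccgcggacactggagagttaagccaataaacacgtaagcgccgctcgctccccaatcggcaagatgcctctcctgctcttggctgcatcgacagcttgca
Unc13a (chr8:71671758-71672007, minus strand): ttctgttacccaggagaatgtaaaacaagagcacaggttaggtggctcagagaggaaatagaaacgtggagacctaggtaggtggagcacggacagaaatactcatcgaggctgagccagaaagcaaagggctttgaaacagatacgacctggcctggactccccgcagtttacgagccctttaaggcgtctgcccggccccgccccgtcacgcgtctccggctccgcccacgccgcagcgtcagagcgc

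The Stx1a window holds 2 adjoining matches, on opposite strands, from base -235 to base -224 counted from the start. Rph3al has 1 match from base -90 to base -85 and Sytl4 has 1 from base -191 to base -186. No match lies in the windows of Cadps, Unc13a or Cadps2, which says only that these letters are not in them. The GC box GGGCGG, searched on both strands, was found in Stx1a, Unc13a, Cadps2 and Rph3al, and in 32.7% of all promoters in the table. The share of G and C was 78.0% in Cadps2, against 58.0% in Cadps and in Unc13a, 62.0% in Stx1a, 56.4% in Rph3al and 53.2% in Sytl4. Of the 4 genes that fell and have a sequence in the table, Rph3al and Sytl4 hold a GATA match and Cadps and Unc13a do not, while Stx1a, which did not pass, holds 2.

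Each gene was then set against a related gene on the same array, because centring of an array cancels in such a difference. In 8 pairs the log2 difference between both genes was compared between the groups with the exact two-sided permutation test, adjusted over the 8 pairs. The partner of Doc2b, Doc2a, shares its probe set with another gene and is not analysed here. In 6 pairs the difference shifted towards the related gene on the arrays labelled Gata6 KO (adjusted p = 0.0381 each, exact test). In the exact two-sided permutation test these 6 pairs each gave an unadjusted p = 0.0286, the smallest the design allows. Their adjusted p in the exact test thus rested on how many pairs tied at that value. After a repeated quantile normalization none of these 6 passed (adjusted p from 0.0571 to 0.098, exact test), although all 8 differences kept their direction. The pairs of Snap25, Rims2, Unc13a and Cadps shared the adjusted p of 0.0571 (exact test), so their losses are not separate results.

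Snap25 minus Snap23, the SNAP family member of most non-neuronal cells, was 3.66, 3.61 and 4.22 on control arrays, against -0.61, 0.12, -0.89 and -0.9998 in the labelled Gata6 KO group. The shift was -4.43 (SE 0.32) with no overlap. Snap23 itself did not pass, with 4.18 ± 0.39 (SD, n = 3) in controls and 4.63 ± 0.52 (SD, n = 4) in the labelled Gata6 KO group. Cadps minus Cadps2 shifted by -3.20 (SE 0.38), from 3.16, 2.69 and 2.18 on the control arrays to -0.53, 0.20, -0.78 and -0.9952 on the others. The groups did not overlap in this difference between the CAPS genes.

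Unc13a minus Unc13b, which encodes a Munc13 protein found also outside the nervous system, shifted by -1.60 (SE 0.32). Unc13b measured 4.64 ± 0.15 (SD, n = 3) and 4.66 ± 0.26 (SD, n = 4). Rims2 minus Rims1 shifted by -1.70 (SE 0.43), and Rims1 itself rose, from 2.13 ± 0.08 (SD, n = 3) to 2.88 ± 0.14 (SD, n = 4; limma adjusted p = 0.0150), a call lost with arrays centred on their median and after a repeated quantile normalization. Sytl4 minus Sytl1, another Rab27 effector gene, was 0.4042, 0.3689 and -0.9721 on control arrays, against -1.2496, -0.9776, -1.9783 and -2.3921 in the labelled Gata6 KO group. It shifted by -1.58 (SE 0.56), but control array 3 and array 2 labelled Gata6 KO nearly coincided. Rph3al minus Rph3a, which encodes the neuronal Rab effector rabphilin, shifted by -0.80 (SE 0.16).

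Vamp2 minus Vamp8 was 0.33, 0.06 and 0.21 on control arrays, against -1.87, -1.11, -1.64 and -0.42 in the labelled Gata6 KO group. The groups did not overlap, and the shift of -1.46 (SE 0.33) missed the threshold (adjusted p = 0.0653, exact test). Vamp8, the granule SNARE of acinar and many blood cells, rose by 0.50 relative to all genes (SE 0.21, limma adjusted p = 0.0320), a call lost under both rescalings. Stx1a minus Stx4a, a syntaxin gene of most cell types, differed by 0.78 (SE 0.45) in the other direction, with overlapping groups (adjusted p = 0.171, exact test).

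**Figure D2:**
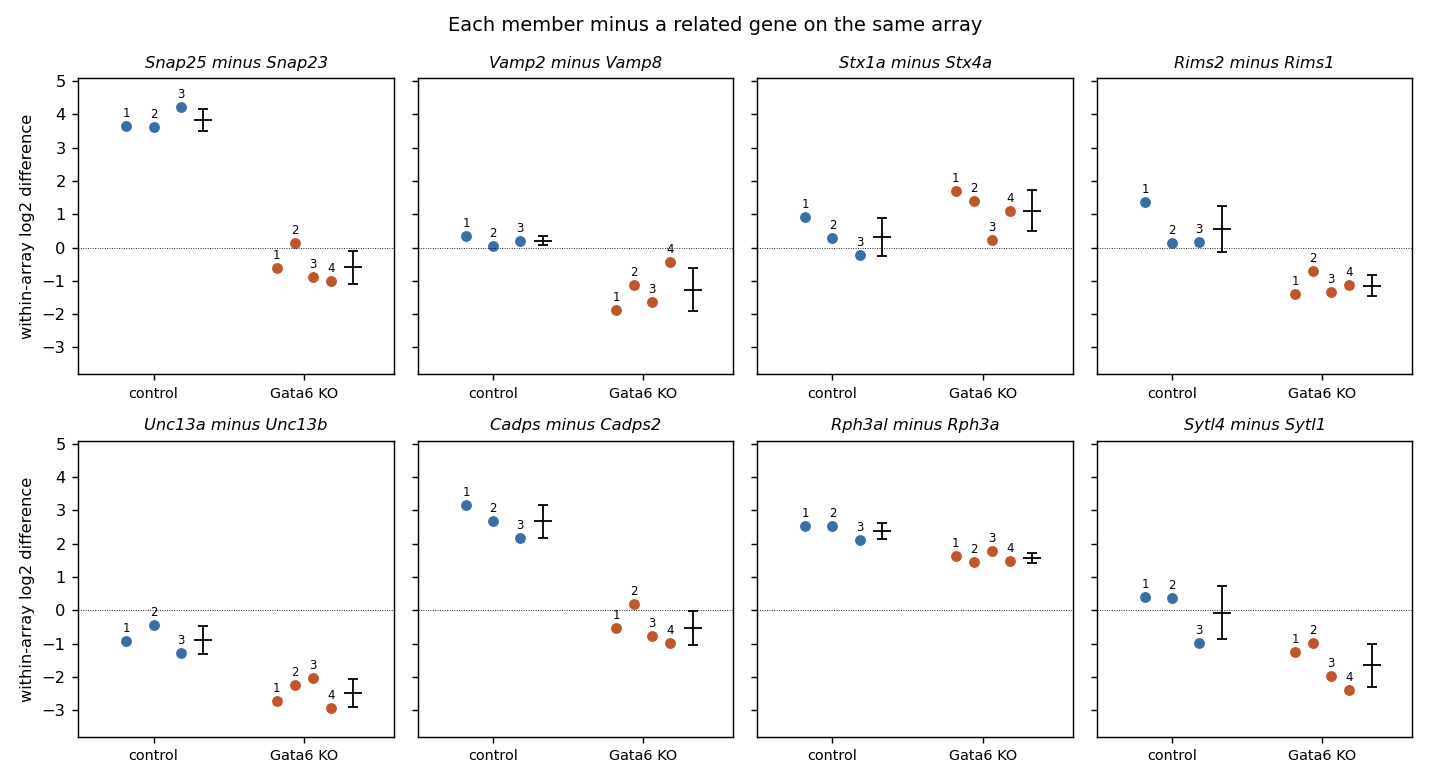
Within-array log2 difference between each gene and its related gene (vertical axis) on the control arrays (blue) and the arrays labelled Gata6 KO (orange), with replicate numbers beside the points and the mean ± SD of each group. In 7 of the 8 panels every array labelled Gata6 KO lies below every control array, for Sytl4 minus Sytl1 by a narrow margin, and for Stx1a minus Stx4a the groups overlap.

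The members' falls were compared with the pan-endocrine markers by centring each array on the mean of those 13 genes, which fell by 2.31 in log2 signal before centring. Relative to that mean Snap25 was lower by this measure on 4 of 4 arrays labelled Gata6 KO, with a difference of -1.66 (limma adjusted p = 1.59e-04), and 31 of 22180 genes were lower in that fit. The mean covers a wide spread, and the granule protein genes at its low end changed nearly as much as Snap25 relative to all genes (-4.14, SE 0.34): Chgb by -3.91 (SE 0.49), Chga by -3.55 (SE 0.55), Scg2 by -3.44 (SE 0.35) and Scg3 by -3.41 (SE 0.66). The endocrine transcription factor genes Rfx6 and Pax6 changed less, by -2.84 (SE 0.22) and -2.51 (SE 0.22). Snap25 was not tested against single markers, and Chgb and Scg3 were named after their values were seen. Cadps also lay below the pan-endocrine mean on 4 of 4 arrays, but its difference of -0.50 did not pass (limma adjusted p = 0.292). Sytl4 (0.61, adjusted p = 0.190) and Unc13a (0.74, adjusted p = 0.144) did not differ detectably from the pan-endocrine mean in limma's test. Vamp2, Rph3al and Rims2, which fell on the deposited scale, were higher on this one, with differences of 1.52 (adjusted p = 9.75e-04), 1.57 (adjusted p = 6.48e-04) and 1.36 (adjusted p = 0.0104) in limma. On this scale 21699 genes were higher and the median difference of all genes was 2.48, so these 3 genes lay between the pan-endocrine mean and the median gene.

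**Figure D3:**
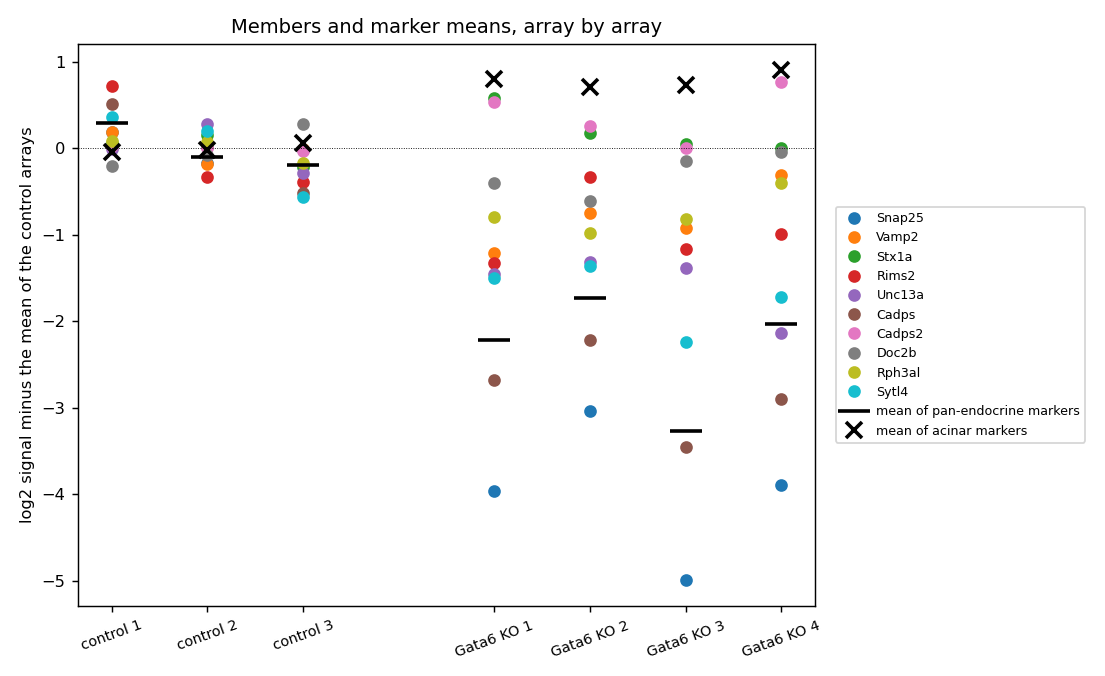
Log2 signal minus the mean of the 3 control arrays (vertical axis) for each of the 10 genes (coloured points), for the mean of 13 pan-endocrine markers (black bars) and for the mean of 17 acinar markers (crosses), array by array. Snap25 and Cadps lie below the pan-endocrine bar on all 4 arrays labelled Gata6 KO, Unc13a on 1 of them, and the acinar mean is higher on all 4 than on any control array.

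Other genes of the exocytosis pathway were counted from fixed lists, chosen like the members with earlier results of these data known. Among all genes 17.4% were higher and 7.36% lower. With arrays centred on their median 7.85% were higher and 12.8% lower, and after a repeated quantile normalization 9.10% and 13.0%. Of 14 other SNAREs of the plasma membrane and post-Golgi compartments, 4 (28.6%) were higher and 1 (7.14%) was lower. Their median change was 0.12, beside 0 for all genes. With arrays centred on their median 2 were higher and 2 lower, Vamp7 and Vamp8 no longer passing, and with repeated quantile normalization 3 and 2. The 4 were Vamp7 (0.92, SE 0.27), which fuses lysosome-related organelles, Stx11 (0.88, SE 0.22), a syntaxin of immune cells, Vamp5 (0.85, SE 0.24) and Vamp8. The lower one was Stx3 (-0.78, SE 0.21, limma adjusted p = 0.0478), a syntaxin of epithelial and endocrine cells, named here after its value was seen. Of 10 lymphocyte markers 6 were higher on the same arrays, and of 12 myeloid markers 5 (4 and 5 under both rescalings). These are 60% and 41.7%, beside 17.4% of all genes. The myeloid marker C1qb changed by -0.40 (SE 0.47) and did not pass. The lymphocyte mean ran from 1.74 to 1.82 on the control arrays and from 2.54 to 3.31 on the others. The myeloid mean ran from 2.45 to 2.71 and from 2.81 to 4.01. The part of these marker shifts in the rise of Stx11 and Vamp8 was not tested.

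Of 14 SNARE assembly and disassembly factors 2 were lower and 1 was higher, with a median of -0.33. These are 14.3% and 7.14%, beside 7.36% of all genes lower and 17.4% higher. Under both rescalings 5 (35.7%) were lower and 1 higher, beside 12.8% and 13.0% of all genes lower. Cplx2, a complexin that binds the assembled SNARE complex, measured 6.93, 6.66 and 6.24 on control arrays, against 4.43, 4.69, 4.62 and 5.02 in the labelled Gata6 KO group. It changed by -2.08 (SE 0.22, limma adjusted p = 5.03e-05) with no overlap. Stxbp5l, which encodes a tomosyn that inhibits SNARE assembly, changed by -1.05 (SE 0.20). Its mean went from 2.03 on control arrays to 1.14 in the labelled Gata6 KO group, below the median probe set there. Stxbp3, the Munc18 partner of syntaxin 4, rose by 1.06 (SE 0.24). Nsf, the ATPase that takes spent SNARE complexes apart, gave 4.96 ± 0.27 (SD, n = 3) and 4.57 ± 0.26 (SD, n = 4) and did not pass. It was named after its value was seen.

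Of 28 other priming, docking and active-zone genes 9 were lower and 4 higher, with a median of -0.33. These are 32.1% and 14.3%, beside 7.36% of all genes lower and 17.4% higher. Under both rescalings 12 (42.9%) were lower and 2 (7.14%) higher. Pclo, the active-zone scaffold piccolo, had the largest change of this list. It measured 6.57, 5.40 and 5.69 on control arrays, against 2.88, 2.09, 1.74 and 3.09 in the labelled Gata6 KO group. The change was -3.60 (SE 0.34, limma adjusted p = 1.44e-05). Rab3a, the granule GTPase bound by RIM and Noc2 proteins, changed by -2.29 (SE 0.32), Rimbp2, a partner of RIM at calcium channels, by -2.21 (SE 0.24) and Myo5a, a motor that carries granules to the membrane, by -1.83 (SE 0.25).

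Other Rab genes of this list passed the test in both directions. They and Unc13d lie outside the fixed rule for naming genes, so their values were seen first, and no difference between isoforms was tested. Rab27a, the partner of granuphilin, measured 7.52, 6.79 and 7.06 on control arrays, against 5.99, 5.86, 5.80 and 5.63 in the labelled Gata6 KO group, a change of -1.47 (SE 0.21, limma adjusted p = 6.36e-04). Rab27b rose by 0.81 (SE 0.22, limma adjusted p = 0.00590). Rab3d, the Rab3 isoform of zymogen granules, measured 5.57, 5.72 and 5.55 on control arrays, against 7.09, 6.76, 6.58 and 7.03 in the labelled Gata6 KO group, a rise of 1.08 (SE 0.20, limma adjusted p = 5.27e-04). Rab3b and Rab3c did not pass. The remaining genes of this list that rose were Rims1 and Unc13d (0.73, SE 0.23), which encodes the Munc13 protein of blood cell granules, and neither call held under either of the rescalings. The acinar marker mean was higher on the same arrays, and its part in the Rab3d, Rab27b and Vamp8 values was not tested.

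Of 18 measured SNAREs of the ER, Golgi and endosomes, which serve traffic in all cells, 0 were lower and 6 were higher in limma's test (0 and 8 at an unadjusted p under 0.05), beside 17.4% of all genes higher on the same unshifted scale, with a median of 0.12. With arrays centred on their median 3 were higher and 0 lower, beside 7.85% of all genes higher, and with repeated quantile normalization 3 were higher and 1 lower. The calls lost under both were Stx8, Stx12 and Use1, of which Stx8 and Use1 were named after their values were seen. Bet1, a SNARE of ER to Golgi traffic, rose most, by 2.28 (SE 0.23, limma adjusted p = 9.37e-06), followed by Bnip1 (1.32, SE 0.21) and Ykt6 (0.74, SE 0.20). Of 9 exocyst subunits, which tether vesicles in constitutive secretion, 0 were lower and 1 was higher in limma's test (0 and 2 at an unadjusted p under 0.05), with a median of -0.29, and a repeated quantile normalization gave 1 lower and 1 higher. The higher one on the deposited scale, 11.1% of the list beside 17.4% of all genes, was Exoc5 (1.11, SE 0.24).

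**Figure D4:**
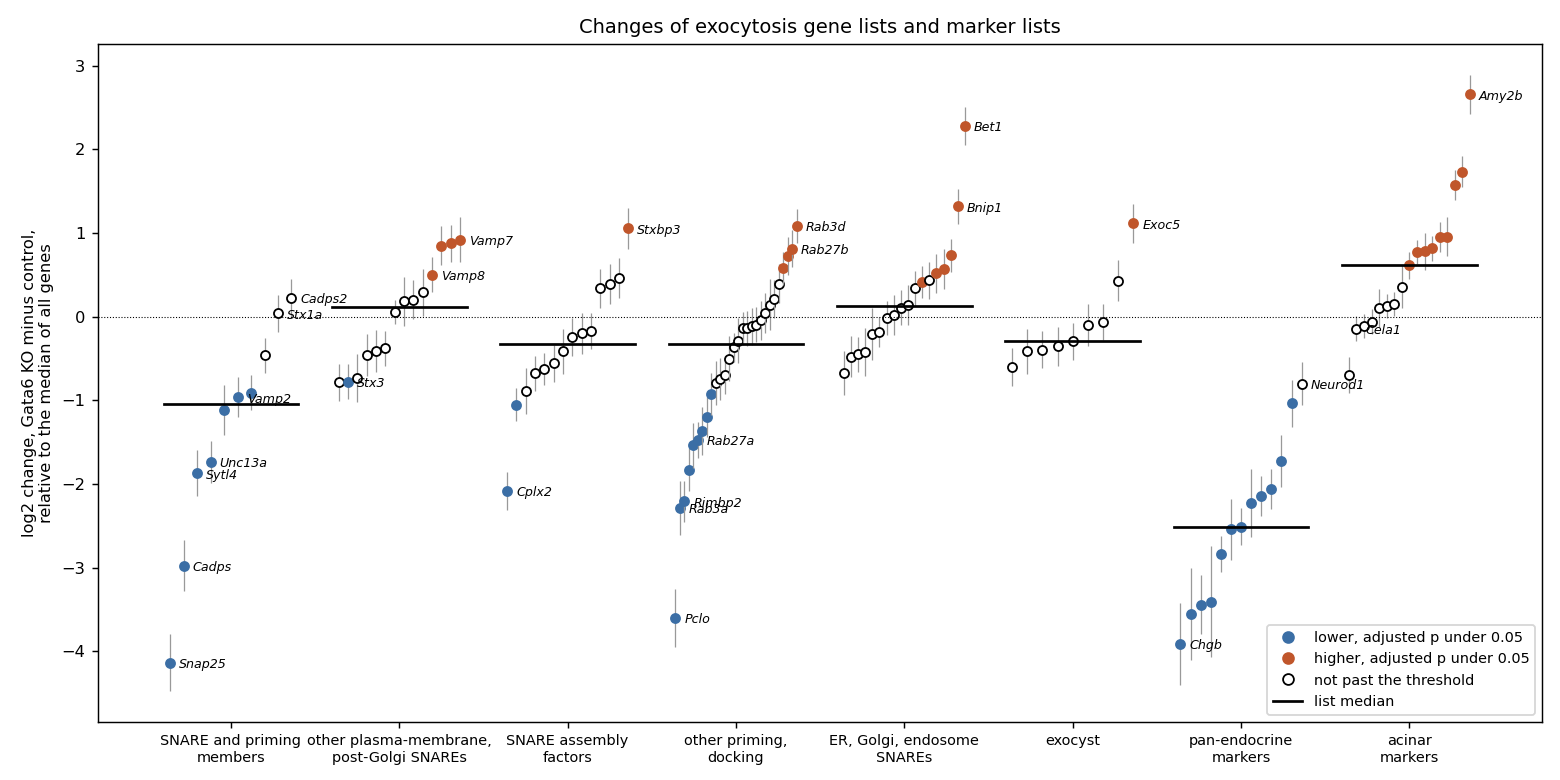
Log2 change of single genes, arrays labelled Gata6 KO minus control, relative to the median of all genes (vertical axis, bars are SE), for the 10 members, the related exocytosis lists and the pan-endocrine and acinar markers. Filled points passed an adjusted p under 0.05 and black lines are list medians, which were -1.04 for the members, -2.51 for the pan-endocrine markers and 0.61 for the acinar markers.

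Snap25, Unc13a and Rims2 are also expressed in nerves, so neuronal and Schwann cell markers were read on the same arrays. Of 10 measured, 3 were lower and 1 was higher, beside 7.36% and 17.4% of all genes. The list mean ran from 2.35 to 2.70 on the control arrays and from 2.13 to 2.44 on the others. The lower ones were Th (-2.84, SE 0.30), the enzyme of catecholamine synthesis, Tubb3 (-1.38, SE 0.25) and Elavl4 (-1.27, SE 0.24), all of which endocrine cells can express. The Schwann cell genes S100b and Sox10, named after their values were seen, had control values of 1.64 ± 0.24 and 2.07 ± 0.17 (SD, n = 3), against 1.27 ± 0.27 and 2.47 ± 0.42 (SD, n = 4), and neither passed, although S100b was called lower under both rescalings. The Ngfr receptor gene rose by 1.26 (SE 0.34). The remaining markers Nefl, Nefm, Prph and Gfap, also named after their values were seen, passed neither on the deposited scale nor under either rescaling. With arrays centred on their median their differences were -0.09, 0.24, 0.03 and 0.03. The part of nerve RNA in the members' falls was not tested.

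The genes most like the members were found by Pearson correlation with the mean log2 signal of the 10 genes over the 7 arrays (a member's own signal is part of that mean), a description that mostly follows the difference between the groups. Cadps (r = 0.997), Snap25 (r = 0.989) and Sytl4 (r = 0.982) followed that mean most closely, and Stx1a (r = -0.358) and Cadps2 (r = -0.553) did not. Outside the 10 genes the 5 with the highest r were Kcnmb2, an auxiliary subunit of a calcium-activated potassium channel, Fam20c, a kinase of the secretory pathway, Tnr, which encodes tenascin-R, Th and the proteoglycan gene Spock2. Their r ran from 0.997 to 0.998. Kcnmb2 measured 4.77, 4.64 and 4.29 on control arrays, against 2.67, 2.90, 2.14 and 2.75 in the labelled Gata6 KO group. Changes of these 5 genes lay between -3.06 (Tnr) and -2.11 (Kcnmb2).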

How the data were processed

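The deposited values were log2 signals that the authors made with RMA and Transcriptome Analysis Console, per the submitters' processing notes, which give no versions. RMA corrects background, normalizes quantiles and summarises probes, yet array medians still differed (1.72 to 2.11), so other steps are possible. For the genome build, the sources used here give nothing. The platform annotation gave 1 symbol for 23521 of 41345 probe sets and several for 1814, and 16010 were left unnamed. The probe set with the highest mean over the 7 arrays stood for a gene with several (1082 genes), which left 22180 genes. No detection calls or scanner files were used here.

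Groups were compared with limma 3.58.1 in R 4.3.3 (lmFit, eBayes with a mean-variance trend, no covariate), with Benjamini-Hochberg adjustment over all genes and a threshold of 0.05. SEs are moderated. The fit was tested for this comparison on simulated data of 22180 genes, of which 200 were changed. It recovered 44.0% of genes with a log2 change of 1 and 94.0% with a change of 2, and 4.83% of calls were unchanged genes. The arrays themselves gave 5486 calls, a far larger share, so these percentages need not hold for them. Exact permutation tests used full enumeration of the 35 splits. The members, the gene lists (185 of 200 genes measured) and the pairs were chosen with earlier results of these data known. The fixed rule for naming genes took in the 10 members, Gata6, both genes of each pair and the 5 genes most like the members. From each list it took up to 4 genes with the smallest p. From each cell type list it also took the 2 with the highest mean. Not all genes of this rule are given above, and markers of the acinar, duct, mesenchymal, endothelial and immune lists are among those left out. Other genes named with values, apart from Xist, are said to lie outside this rule or to be named after their values were seen. The duct list had 3 of 8 higher and 1 lower, and the mesenchymal list 8 of 12 higher. The endothelial list had 3 of 10 lower and 1 higher. Of all genes 17.4% were higher and 7.36% lower. With arrays centred on their median, or quantiles normalized again, the duct list had 1 higher and 1 lower, the mesenchymal list 5 higher and the endothelial list 4 lower and 1 higher. Alternatives are given in the closing section. Figures were drawn with matplotlib 3.10.9.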

Additional observations from a re-analysis of the deposited data

How the results depend on the processing

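The number of genes called over the whole array was 5486. Its split was 3853 higher and 1633 lower, and it turned to 1742 and 2831 with arrays centred on their median and to 2018 and 2892 with quantile normalization run again. The total was 3265 without control array 1 and 3586 without control array 2, in a range from 3265 to 5613 over the arrays left out in turn, and 21730 when arrays were centred on the pan-endocrine marker mean. The number of members called was 7, from 4 to 6 with an array left out, and 5 with all probe sets tested. The number of members called lower was 7, again from 4 to 6 with an array left out, and 1 when arrays were centred on the pan-endocrine marker mean. That centring called 6 members higher, with Stx1a (2.52) and Cadps2 (2.70) among them. On that scale the unshifted differences of Vamp2 (1.52), Rims2 (1.36), Unc13a (0.74), Sytl4 (0.61), Rph3al (1.57) and Doc2b (2.01) were above 0, by construction of the scale, which moved the median of all genes to 2.48. The related lists under these scalings, an alternative chosen after seeing the data, are given with their counts. The unshifted difference of Stx1a turned to -0.041 when arrays were centred on their median.

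Snap25 passed under all 18 alternatives, with an adjusted p between 1.62e-06 and 4.52e-04 and a difference from -4.33 to -1.66. Cadps, Unc13a and Sytl4 passed under all but the pan-endocrine centring. The same 7 members passed with arrays centred on their median, with quantile normalization run again, without the lowest 40% of genes by mean (Doc2b was among those removed), with a gene's probe sets averaged, with eBayes robust or untrended, with array weights and with low or high Xist as a block. With the replicate block the same 7 members passed, and 5921 genes in all. Array 4 labelled Gata6 KO has no control of its number, so it adds nothing to the group difference in that fit. The Cadps difference, for one, was -2.78 with the block and also without array 4. Samples with the same number shared little (correlation of deviations 0.0976, 0.0043 and 0.115), so the numbers were not taken as pairs. With an array left out, the pair differences kept their direction for all 8 pairs, but 6 arrays cannot give an exact p below 0.0667 and no test was made. How signal over background limits single probe sets was not analysed here, since no detection calls were used.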
